A study of Arabidopsis thaliana with 14 samples.

Results

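Torpedo embryos were compared with heart embryos of Arabidopsis thaliana, over all genes with a locus code in a table of RNA-sequencing values. The comparison took 4 libraries, 2 of heart and 2 of torpedo embryos, out of 14 libraries that cover 7 stages from the zygote to the mature embryo. Both groups were whole embryos isolated from wild-type plants of the ecotype Col-0, with no treatment, mutation or age in days given, and the replicates of a stage were labelled as biological. Whole embryos hold every embryonic tissue, so fewer cells of a type and less RNA per cell cannot be told apart. Of 25517 rows in the table, 25414 carried a locus code. Of these genes 18744 reached 10 in 2 or more of the 14 libraries and were tested, 6670 were not tested, and 3980 had no read in any of the 4 libraries compared.

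At the heart stage the cotyledons, the seed leaves, have begun to bulge from the embryo's apex and the main tissue layers are laid out. By the torpedo stage cotyledons and axis have lengthened, plastids are turning green, and the embryo is entering maturation, when storage protein and oil are laid down. Maturation is driven by a network of transcription factors, among them LEC1 and its relative NF-YB6 (also called LEC1-LIKE), ABI3, FUS3 and LEC2, which act on reserve genes with bZIP partners, and WRI1, which acts on fatty acid synthesis.

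Values are normalised read counts, scaled so that each library sums to 20000000, and they are given in the order first and second library of a stage. The heart libraries held 13247056 and 19982767 reads, so that 1 read was worth 1.51 and 1.00. The torpedo libraries held 6097762 and 30803336 reads, and 1 read was worth 3.28 and 0.649. The first torpedo library was the shallowest of the 4, which makes its low values the least precise. Rows without a locus code took 15.6% and 13.5% of the heart reads and 10.9% and 10.7% of the torpedo reads. Across genes the log2 values of the heart libraries correlated at 0.972 and those of the torpedo libraries at 0.976, as a description in which genes are not independent. The 15 endosperm markers summed to 489 and 528 in the heart libraries and 335 and 314 in the torpedo libraries, with 4, 5, 9 and 6 of them at 0. The 9 seed coat markers summed to 622 and 668 in the heart libraries and 754 and 703 in the torpedo libraries.

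Of the 18744 genes tested, 4765 (25.4%) changed between the stages at an adjusted p under 0.05 (limma, Benjamini-Hochberg over all genes tested). Genes that rose from heart to torpedo numbered 3046 (16.3%), and 1719 (9.17%) fell. The median log2 change of all genes tested was 0.19, and the smallest change that passed the test was 0.93 in log2. Both torpedo libraries lay above both heart libraries for 7492 genes (40.0%), and both heart libraries lay above both torpedo libraries for 4687 (25.0%). Of the genes past the test 3045 of the 3046 rises and all 1719 falls were without overlap. For a gene past the test, lack of overlap is thus no support beyond the call. The split between rises and falls depended on the scaling. With each library centred on its median the median change moved to -0.26, and 1965 genes rose and 3132 fell. With upper-quartile scaling 2360 rose and 2006 fell, with quantile normalization 2303 rose and 2338 fell, with edgeR 2213 rose and 2308 fell, and with DESeq2 2352 rose and 2489 fell. Rises and falls below are relative to the deposited scale. Leaving out the first or the second heart library left 1702 or 1757 rises and 1007 or 1116 falls, and leaving out the first or the second torpedo library left 1681 or 1555 rises and 873 or 1044 falls.

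**Figure D1:**
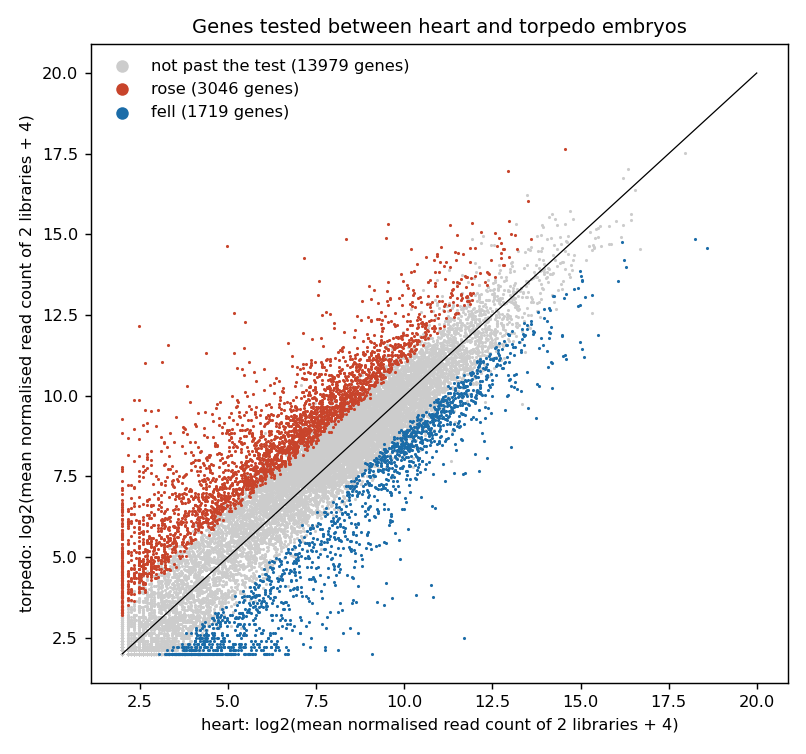
Mean of the 2 torpedo libraries (y) against mean of the 2 heart libraries (x) for the 18744 genes tested, as log2 of the normalised read count plus 4. Each point is a gene; the 3046 genes that rose (red) lie above the line of equal values, the 1719 that fell (blue) lie below it, and the rest are grey.

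The largest rises by rule were led by KCS18 (AT4G34520, chr4:16494205-16495842), also known as FAE1, the condensing enzyme that lengthens fatty acids for seed oil. Its values were 3.02 and 0 in the heart libraries and 3988 and 5119.6 in the torpedo libraries. Heart embryos gave 2 reads of it in all, and its share of reads was 4098-fold (95% counting interval 1134 to 33842) higher at torpedo (adjusted p = 2.44e-08). AT1G62500 (chr1:23131928-23133507), described as a bifunctional inhibitor and lipid-transfer protein, had 24.2 and 30.03 in the heart libraries and 17413 and 33765 in the torpedo libraries. It rose by 9.61 in log2 (SE 1.17, adjusted p = 6.31e-05). A relative by description, AT2G10940, had 1.51 and 8.01 in the heart libraries and 1781 and 2409 in the torpedo libraries (adjusted p = 1.57e-05). All 3 genes were low in each heart library and high in each torpedo library.

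The other leaders included several enzymes and regulators outside reserve synthesis. UGT74F2, a glucosyltransferase known for acting on salicylic acid, had 0 and 2.0 in the heart libraries and 774 and 1078 in the torpedo libraries, a share of reads 854-fold (95% counting interval 236 to 7054) higher at torpedo (adjusted p = 8.82e-08). AOP3, a dioxygenase of the glucosinolate pathway, had 33.2 and 30.03 in the heart libraries and 6471 and 5509 in the torpedo libraries (log2 change 7.39, adjusted p = 7.9e-07). MYB111, a transcription factor that turns on flavonol synthesis, had no read in either heart library and 548 and 679.8 in the torpedo libraries. Against 3 reads over both heart libraries it was at least 339.9-fold higher (adjusted p = 9.45e-07). The rule that chose these genes required stages without overlap. The remaining rises of the rule were AT3G63040 (log2 change 8.31), ACP5 (6.90), PAP85, OLEO5, CRA1 and SWEET11, described below, and AT5G28300, AT4G23680 and ZF14. AT5G28300, described as homeodomain-like, had 0 and 3.0 in the heart libraries and 502 and 1369 in the torpedo libraries, a share of reads 679-fold (95% counting interval 232 to 3293) higher. AT4G23680, of a polyketide cyclase family, had 4.53 and 0 in the heart libraries and 1004 and 508 in the torpedo libraries, a share 327-fold (95% counting interval 112 to 1588) higher. ZF14, a MATE efflux transporter, had 0 and 2.0 in the heart libraries and 574 and 419 in the torpedo libraries, a share 369.7-fold (95% counting interval 102 to 3058) higher. The adjusted p of these 3 genes was 1.79e-06, 3.91e-06 and 8.75e-07.

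The largest falls were led by MRD1 (AT1G53480, chr1:19963047-19964712), named for responding to a methionine-overproducing mutant. Its values were 1818 and 4764 in the heart libraries and 0 and 3.25 in the torpedo libraries (log2 change -9.10, SE 0.49, adjusted p = 8.82e-08). GASA1 (AT1G75750, chr1:28441501-28442435), a small cysteine-rich protein gene of the gibberellin-responsive GASA family, had 2058 and 1553 in the heart libraries and 3.28 and 15.6 in the torpedo libraries (log2 change -7.23, SE 0.53, adjusted p = 9.45e-07). Both genes were abundant in each heart library and almost absent from each torpedo library. MLP328, of the major latex protein family, had 409 and 664 in the heart libraries and no read in either torpedo library. Against 3 reads over both torpedo libraries it was at least 329.9-fold lower at torpedo (adjusted p = 8.82e-08). GSTF6, a glutathione transferase, had 219 and 327 in the heart libraries and 0 and 0.649 in the torpedo libraries, and its share of reads was 524-fold (95% counting interval 93.6 to 20746) higher at heart (adjusted p = 9.45e-07). CYP83B1, an enzyme of indole glucosinolate synthesis, had 228 and 196 in the heart libraries and 0 and 0.649 in the torpedo libraries, a share 385-fold (95% counting interval 68.7 to 15263) higher at heart (adjusted p = 7.12e-06). Each torpedo library held at most 1 read of these last genes.

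AT1G52695, a hydrolase by description, had 259.7 and 161 in the heart libraries and 0 and 1.3 in the torpedo libraries, a share 185-fold (95% counting interval 50.8 to 1533) higher at heart (adjusted p = 7.71e-06). The other falls of the rule ranged from -6.67 in log2 for AT2G34330, described as a BOBBER-like protein, to -5.37 for GAD, a glutamate decarboxylase. Between them stood AT1G52070, a mannose-binding lectin (-6.53), AT4G25830 (-6.09) and AT5G09370, a lipid-transfer family protein (-5.90). AT4G15750, an inhibitor of invertases or pectin methylesterases by description, fell by 5.89, ZW9 by 5.79, AT2G18193 by 5.71 and GRP-3, a glycine-rich protein, by 5.61. Their adjusted p ranged from 2.04e-07 for AT4G15750 to 5.78e-05 for GAD. The call of each of these 15 rises and 15 falls was kept with each of the 4 libraries left out.

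The genes of seed storage proteins, which are laid down as a nitrogen reserve, had the highest median change of the 37 lists. Of 9 tested 8 rose and none fell (16.3% of all genes rose and 9.17% fell), with a median log2 change of 5.01. Summed over the list the normalised read counts were 2369 and 2163 in the heart libraries and 32494 and 68168 in the torpedo libraries. Many promoters of such genes carry the RY element CATGCA, the site of the B3 factors ABI3, FUS3 and LEC2. The 200 bases before the annotated start of 4 reserve genes with large rises are shown, with RY matches on either strand in capitals (RefSeq, build TAIR10.1, printed in the direction of the gene).
PAP85: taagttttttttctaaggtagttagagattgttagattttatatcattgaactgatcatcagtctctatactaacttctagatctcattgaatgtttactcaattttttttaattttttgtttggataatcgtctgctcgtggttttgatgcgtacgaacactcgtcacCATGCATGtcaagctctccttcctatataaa
CRA1: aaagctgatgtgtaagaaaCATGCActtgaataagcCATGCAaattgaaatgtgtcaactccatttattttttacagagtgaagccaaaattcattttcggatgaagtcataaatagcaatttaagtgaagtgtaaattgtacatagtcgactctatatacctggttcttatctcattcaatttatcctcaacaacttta
OLEO5: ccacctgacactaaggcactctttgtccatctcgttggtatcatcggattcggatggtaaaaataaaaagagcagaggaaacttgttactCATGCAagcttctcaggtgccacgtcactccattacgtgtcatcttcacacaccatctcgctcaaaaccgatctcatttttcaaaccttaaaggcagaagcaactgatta
OLEO1: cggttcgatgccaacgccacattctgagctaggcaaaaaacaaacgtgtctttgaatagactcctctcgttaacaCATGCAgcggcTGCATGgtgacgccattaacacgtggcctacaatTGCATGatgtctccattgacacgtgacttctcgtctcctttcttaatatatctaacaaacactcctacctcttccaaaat
The windows lie at chr3:8013942-8014141 (minus strand) for PAP85, chr5:17758337-17758536 (minus) for CRA1, chr3:222828-223027 (minus) for OLEO5 and chr4:12900230-12900429 (plus) for OLEO1. OLEO1 held 3 matches, CRA1 held 2, and in PAP85 the 2 matches, one on each strand, overlapped in a single run close to the start. In windows of 250 bases an RY match stood in 6 of the 9 storage protein genes and in 13 of 17 oil body genes. The share was 8.04% of the 18725 genes tested with a window and 10.6% of all genes that rose. Among other lists it stood in none of 20 light harvesting genes and 6 of 33 photosystem and electron transport subunits. It also stood in 9 of 26 gibberellin genes and 3 of 10 aquaporins. These matches are a description of letters, not of bound sites.

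PAP85 (AT3G22640, chr3:8011724-8013941), a vicilin-like globulin, had 4.53 and 0 in the heart libraries and 1683 and 2430.3 in the torpedo libraries. The heart value rested on 3 reads, and its share of reads was 1278-fold (95% counting interval 437 to 6197) higher at torpedo (adjusted p = 1.16e-07). CRA1 (AT5G44120, chr5:17756238-17758336), the cruciferin that is a main globulin of the ripe seed, had 16.6 and 17 in the heart libraries and 3309 and 1793 in the torpedo libraries (log2 change 6.87, SE 0.42, adjusted p = 2.04e-07). VCL22, another vicilin-like protein, had 60.4 and 37 in the heart libraries and 1335 and 2033 in the torpedo libraries (log2 change 5.01, SE 0.37, adjusted p = 9.45e-07). For each of these genes both torpedo libraries were far above both heart libraries, although the torpedo replicates of CRA1 differed from each other in the opposite order to those of PAP85. AT4G36700, a cupin family protein, had 850 and 632 in the heart libraries and 23117 and 58262 in the torpedo libraries (log2 change 5.64, adjusted p = 1.28e-06). AT2G18540, another cupin, had 3.02 and 2.0 in the heart libraries and 138 and 404 in the torpedo libraries (log2 change 5.21, adjusted p = 0.000121). Only AT1G07750 did not pass, at 1412 and 1460.3 in the heart libraries and 2621 and 2474 in the torpedo libraries (adjusted p = 0.338). Both its torpedo libraries lay above both heart libraries, as for 40.0% of all genes tested. CRA1 reached 268720 and 234140 in the bent embryos that follow.

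Oil is stored in droplets coated by oleosins. Of 17 oil body genes tested 11 rose (64.7%, against 16.3% of all genes) and none fell (9.17% of all genes did). The median log2 change was 2.42 (2.57 with genes that had no read at heart set at their bound against 3 reads). OLEO1 (AT4G25140, chr4:12900430-12901577) had 299 and 338 in the heart libraries and 26226 and 32872 in the torpedo libraries (log2 change 6.51, SE 0.41, adjusted p = 2.09e-07). OLEO5 (AT3G01570, chr3:221939-222827) had 104 and 174 in the heart libraries and 18384 and 20867 in the torpedo libraries (log2 change 7.14, SE 0.48, adjusted p = 4.39e-07). Both oleosins were far higher in each torpedo library, with close replicates. OLEO2 had 2182 and 2826 in the heart libraries and 46138 and 33137 in the torpedo libraries and OLEO3 had 4573 and 3152 in the heart libraries and 43747 and 39562 in the torpedo libraries, with log2 changes of 3.97 (adjusted p = 1.24e-05) and 3.45 (adjusted p = 5.16e-05). Both were well above the detection floor already at heart. HSD5, a steroleosin-type dehydrogenase of the droplet surface, had 13.6 and 5.0 in the heart libraries and 590.4 and 439.6 in the torpedo libraries (log2 change 5.35, adjusted p = 1.57e-05). LDAP3, a droplet protein known from leaves as well, had 2801 and 3026 in the heart libraries and 21195 and 22616 in the torpedo libraries (log2 change 2.91, adjusted p = 8.5e-05). The count of rises was 11, 11, 12 and 11 without the first heart, second heart, first torpedo or second torpedo library.

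**Figure D2:**
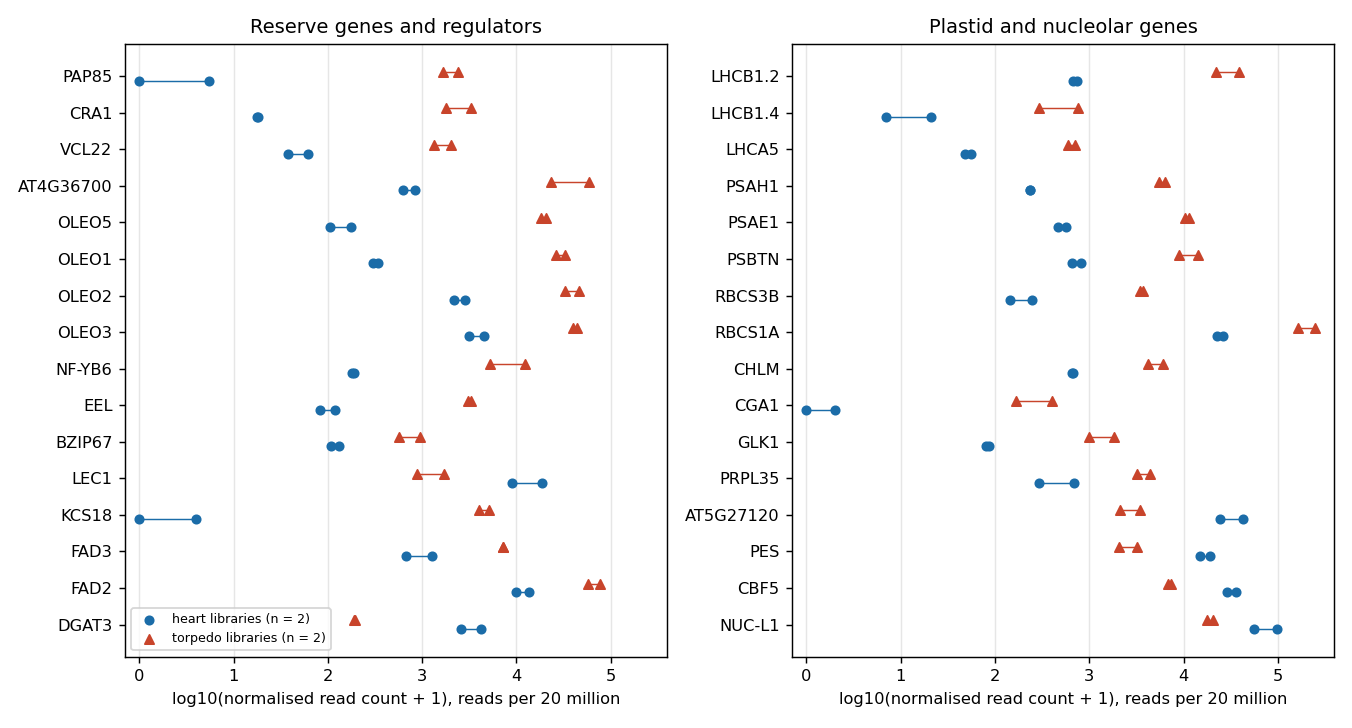
Values of reserve genes and their regulators (left) and of plastid and nucleolar genes (right) in each library, as log10 of the normalised read count plus 1. Circles are the 2 heart libraries, triangles the 2 torpedo libraries, and a line joins the libraries of a stage. LEC1, DGAT3 and the 4 nucleolar genes at the foot of the right panel are lower at torpedo and the other genes higher, with no overlap between the stages.

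Among 26 maturation regulators tested 7 rose (26.9%, against 16.3% of all genes) and 2 fell (7.69%, against 9.17%), with a median log2 change of 0.68. Median-centring gave 5 rises and 4 falls. The closely related LEC1 and NF-YB6, both subunits of the trimeric factor NF-Y, moved in opposite directions. LEC1 (AT1G21970, chr1:7727577-7729649) had 9022 and 18665 in the heart libraries and 1712 and 891 in the torpedo libraries (log2 change -3.39, SE 0.55, adjusted p = 0.000524). NF-YB6 (AT5G47670, chr5:19314778-19316169) had 190.2 and 180.2 in the heart libraries and 12428 and 5255 in the torpedo libraries (log2 change 5.42, SE 0.68, adjusted p = 7.88e-05). For neither gene did the stages overlap, although the torpedo libraries of each differed, with the first above the second. The bZIP gene EEL, whose product binds LEA gene promoters, had 118 and 81.1 in the heart libraries and 3044 and 3271 in the torpedo libraries (log2 change 4.96, adjusted p = 9.17e-06). BZIP67, a partner of LEC1-type factors in seed gene activation, had 107 and 131 in the heart libraries and 574 and 949 in the torpedo libraries (log2 change 2.60, adjusted p = 0.00202). Like nearly all genes past the test, neither bZIP gene overlapped between the stages.

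Other regulators of the network did not pass the test. WRI1 had 1203 and 1620.4 in the heart libraries and 5205 and 7216 in the torpedo libraries (log2 change 2.13, SE 0.88, adjusted p = 0.0879), and among other alternatives it passed with DESeq2 (adjusted p = 0.0475) and in the fit of these 4 libraries alone (adjusted p = 0.0306). ABI3 had 2770.4 and 2743 in the heart libraries and 3880.1 and 4881 in the torpedo libraries (adjusted p = 0.385). FUS3, named here after its values were seen, had 1215 and 1111 in the heart libraries and 1732 and 2532 in the torpedo libraries (adjusted p = 0.239). For all 3 genes both torpedo libraries lay above both heart libraries (40.0% of all genes tested did), without passing the test. The regulators' counts changed to 4, 4, 4 and 5 rises and 1, 2, 1 and 1 falls without the first heart, second heart, first torpedo or second torpedo library.

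Fatty acids for oil are made in the plastid, and 17 of 35 genes of that synthesis rose (48.6%, against 16.3% of all genes). None fell (9.17% of all genes did), and the median log2 change was 1.75. ACP5, an acyl carrier protein on which the chains are built, had 25.7 and 55 in the heart libraries and 4467 and 5549 in the torpedo libraries (log2 change 6.90, SE 0.99, adjusted p = 0.000227). DES6, a stearoyl desaturase that makes oleic acid, had 119 and 154 in the heart libraries and 3103 and 4775 in the torpedo libraries (log2 change 4.79, SE 0.59, adjusted p = 6.9e-05). BCCP2, the biotin carrier of the first committed step, had 1310.5 and 1298 in the heart libraries and 14678 and 19987 in the torpedo libraries (log2 change 3.71, adjusted p = 0.000361). LPD2, a subunit of the plastid pyruvate dehydrogenase, had 448 and 423 in the heart libraries and 6061 and 4329 in the torpedo libraries (log2 change 3.54, adjusted p = 0.000487). All 4 genes stood at least several times higher in each torpedo than in each heart library. KASI, the main chain-elongating synthase, had 12302 and 10762 in the heart libraries and 70344 and 81171 in the torpedo libraries but did not pass (log2 change 2.71, adjusted p = 0.112). The reductase gene FABG overlapped between the stages at 42905 and 54066 in the heart libraries and 46745 and 32189 in the torpedo libraries (adjusted p = 0.731). Rises of the list numbered 10, 9, 7 and 9 without the first heart, second heart, first torpedo or second torpedo library.

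Of 21 genes of oil assembly and fatty acid modification 10 rose and 1 fell, with a median log2 change of 0.77. These shares were 47.6% and 4.76%, against 16.3% and 9.17% of all genes. FAD2, the desaturase that makes linoleic acid, had 9886 and 13559 in the heart libraries and 57900 and 76504 in the torpedo libraries (log2 change 2.52, SE 0.42, adjusted p = 0.000657). FAD3, which makes linolenic acid from it, had 1269.7 and 681 in the heart libraries and 7160 and 7149 in the torpedo libraries (log2 change 2.94, SE 0.60, adjusted p = 0.00278). KCR1, a reductase that works with KCS18 in chain elongation, had 1028 and 1176 in the heart libraries and 5425 and 6284 in the torpedo libraries (log2 change 2.40, adjusted p = 0.00327). The member that fell was DGAT3, a soluble diacylglycerol acyltransferase, which had 2580.2 and 4185 in the heart libraries and 187 and 195 in the torpedo libraries (log2 change -4.08, SE 0.37, adjusted p = 7.12e-06). It was back at 3645 and 4521 in the bent embryos, near its heart level. The list's rises numbered 6, 7, 7 and 7 when each heart and then each torpedo library was left out.

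Late embryogenesis abundant (LEA) and other desiccation proteins protect the drying seed. Of 34 such genes 11 rose (32.4%, against 16.3% of all genes) and 1 fell (2.94%, against 9.17%), with a median log2 change of 1.04. The count depended on the scaling, with 6 rises and 2 falls after median-centring, 7 and 0 after quantile normalization, and 12 and 1 by edgeR. Their levels were low at both stages, with list sums of 3063 and 3141 in the heart libraries and 5559 and 6075 in the torpedo libraries. PER1, a seed peroxiredoxin, had no read at heart and 75.4 and 93.5 at torpedo, at least 46.8-fold higher against 3 reads over both heart libraries (adjusted p = 1.99e-05). LEA4-1 had 51.3 and 37 in the heart libraries and 518 and 404 in the torpedo libraries and AT5G44310, another LEA gene, had 7.55 and 9.01 in the heart libraries and 82 and 158 in the torpedo libraries. These rises came to 3.28 and 3.27 in log2 (adjusted p = 8.5e-05 and 0.000197). The dehydrin gene RAB18 had 785 and 1077 in the heart libraries and 1849.9 and 1692 in the torpedo libraries and did not pass (adjusted p = 0.0878). Of single libraries, the list's rises numbered 4 without the first heart library, 7 without the second, 12 without the first torpedo library and 5 without the second.

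Genes of photosynthesis in the nuclear genome rose widely. Of 20 light harvesting proteins, which bind chlorophyll around the photosystems, 13 rose and none fell (16.3% and 9.17% of all genes did). The median log2 change was 2.44, and in all 20 both torpedo libraries lay above both heart libraries (40.0% of all genes tested did). Their summed normalised read counts were 77789 and 87342 in the heart libraries and 510680 and 361750 in the torpedo libraries. LHCB1.2 had 673 and 744 in the heart libraries and 39001 and 21974 in the torpedo libraries (log2 change 5.36, SE 1.14, adjusted p = 0.00363). LHCB1.4 had 6.04 and 20.02 in the heart libraries and 758 and 291 in the torpedo libraries (log2 change 4.93, SE 0.76, adjusted p = 0.000365). LHCA5, a minor antenna of photosystem I, had 46.8 and 55 in the heart libraries and 705 and 593 in the torpedo libraries (log2 change 3.57, SE 0.45, adjusted p = 7.28e-05). Other antenna genes did not pass. LHCB1.5 had 13043 and 17483 in the heart libraries and 44826 and 35273 in the torpedo libraries (adjusted p = 0.266) and LHCB6 had 14643 and 13113 in the heart libraries and 31605 and 31864 in the torpedo libraries (adjusted p = 0.395). The first torpedo library was the higher of the torpedo libraries for LHCB1.2, LHCB1.4 and LHCB1.5.

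Of 33 photosystem and electron transport subunits 20 rose (60.6%) and none fell, against 16.3% and 9.17% of all genes, with a median log2 change of 2.71. PSAH1, a subunit of photosystem I, had 232 and 233 in the heart libraries and 6373 and 5529 in the torpedo libraries (log2 change 4.65, SE 0.92, adjusted p = 0.00218). PSAE1, of the same complex, had 459 and 560.5 in the heart libraries and 11316 and 10292 in the torpedo libraries (log2 change 4.40, SE 0.74, adjusted p = 0.000723). PSBTN, a small subunit of photosystem II, had 659.8 and 812 in the heart libraries and 9043 and 14315 in the torpedo libraries (log2 change 3.95, SE 0.78, adjusted p = 0.00212). For each of the 3 both torpedo libraries were far above both heart libraries. PSAF and PSBO1 did not pass, with 34317 and 22394 in the heart libraries and 42809 and 48105 in the torpedo libraries for PSAF (adjusted p = 0.552) and 15827 and 21456 in the heart libraries and 48985 and 51603 in the torpedo libraries for PSBO1 (adjusted p = 0.169). Among 15 carbon fixation enzymes 11 rose (73.3%, against 16.3% of all genes) and none fell, with a median of 2.34. Of the genes for the small subunit of Rubisco, RBCS1B had 4.53 and 9.01 in the heart libraries and 125 and 162 in the torpedo libraries and RBCS3B had 246 and 144 in the heart libraries and 3418 and 3715 in the torpedo libraries. They rose by 3.79 and 4.21 in log2 (adjusted p = 0.000262 and 0.00124). RBCS1A had 26080 and 22529 in the heart libraries and 249310 and 164560 in the torpedo libraries (log2 change 3.06, SE 1.00, adjusted p = 0.0364). Its call was lost without the first heart (adjusted p = 0.12), second heart (0.143), first torpedo (0.168) or second torpedo library (0.0953).

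Of 22 chlorophyll synthesis enzymes tested 8 rose (36.4%) and none fell, against 16.3% and 9.17% of all genes, with a median of 1.21. CHLM, which methylates magnesium protoporphyrin, had 666 and 657 in the heart libraries and 6107 and 4231 in the torpedo libraries (log2 change 2.94, SE 0.42, adjusted p = 0.000216). PORB, which reduces protochlorophyllide in light, had 1612 and 1538 in the heart libraries and 18262 and 21998 in the torpedo libraries (log2 change 3.67, SE 1.27, adjusted p = 0.0465), and that call was lost with any 1 of the 4 libraries left out (adjusted p = 0.153 and 0.157 without the first and second heart library, 0.138 and 0.167 without the first and second torpedo library). GGR, which makes chlorophyll's side chain, had 9602 and 13563 in the heart libraries and 29011 and 18779 in the torpedo libraries and did not pass (adjusted p = 0.159). Of 11 plastid regulators, division and import genes 4 rose (36.4%, against 16.3% of all genes) and none fell. CGA1, a GATA factor that promotes greening, had 0 and 1.0 in the heart libraries and 164 and 399 in the torpedo libraries, a share of reads 598-fold (95% counting interval 107 to 23652) higher at torpedo (adjusted p = 2.14e-05). GLK1, an activator of photosynthesis genes, had 84.5 and 80.1 in the heart libraries and 1817 and 989.5 in the torpedo libraries (log2 change 3.96, SE 0.70, adjusted p = 0.000989). Both regulators were far higher in each torpedo library than in either heart library.

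Of 22 plastid ribosomal proteins 15 rose (68.2%) and none fell, against 16.3% and 9.17% of all genes, with a median of 1.64. EMB3136 had 579.8 and 479 in the heart libraries and 4864 and 5551 in the torpedo libraries, and PRPL35 had 289.9 and 691 in the heart libraries and 3234 and 4430 in the torpedo libraries. They rose by 3.29 and 3.07 in log2 (adjusted p = 0.00127 and 0.000716). AT1G64510 and AT1G29070 rose by 3.23 and 3.18 (adjusted p = 0.000592 and 0.000976). AT2G43030 did not pass and lay the other way, at 15481 and 15834 in the heart libraries and 8324 and 11977 in the torpedo libraries (adjusted p = 0.314). Rises without the first heart, second heart, first torpedo and second torpedo library numbered 7, 7, 5 and 7 for light harvesting, 9, 10, 9 and 11 for photosystems, 8, 6, 3 and 8 for carbon fixation, 2, 2, 2 and 2 for chlorophyll synthesis and 7, 11, 11 and 8 for plastid ribosomes. After median-centring the same lists had 11, 19, 10, 5 and 12 rises and had no fall.

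**Figure D3:**
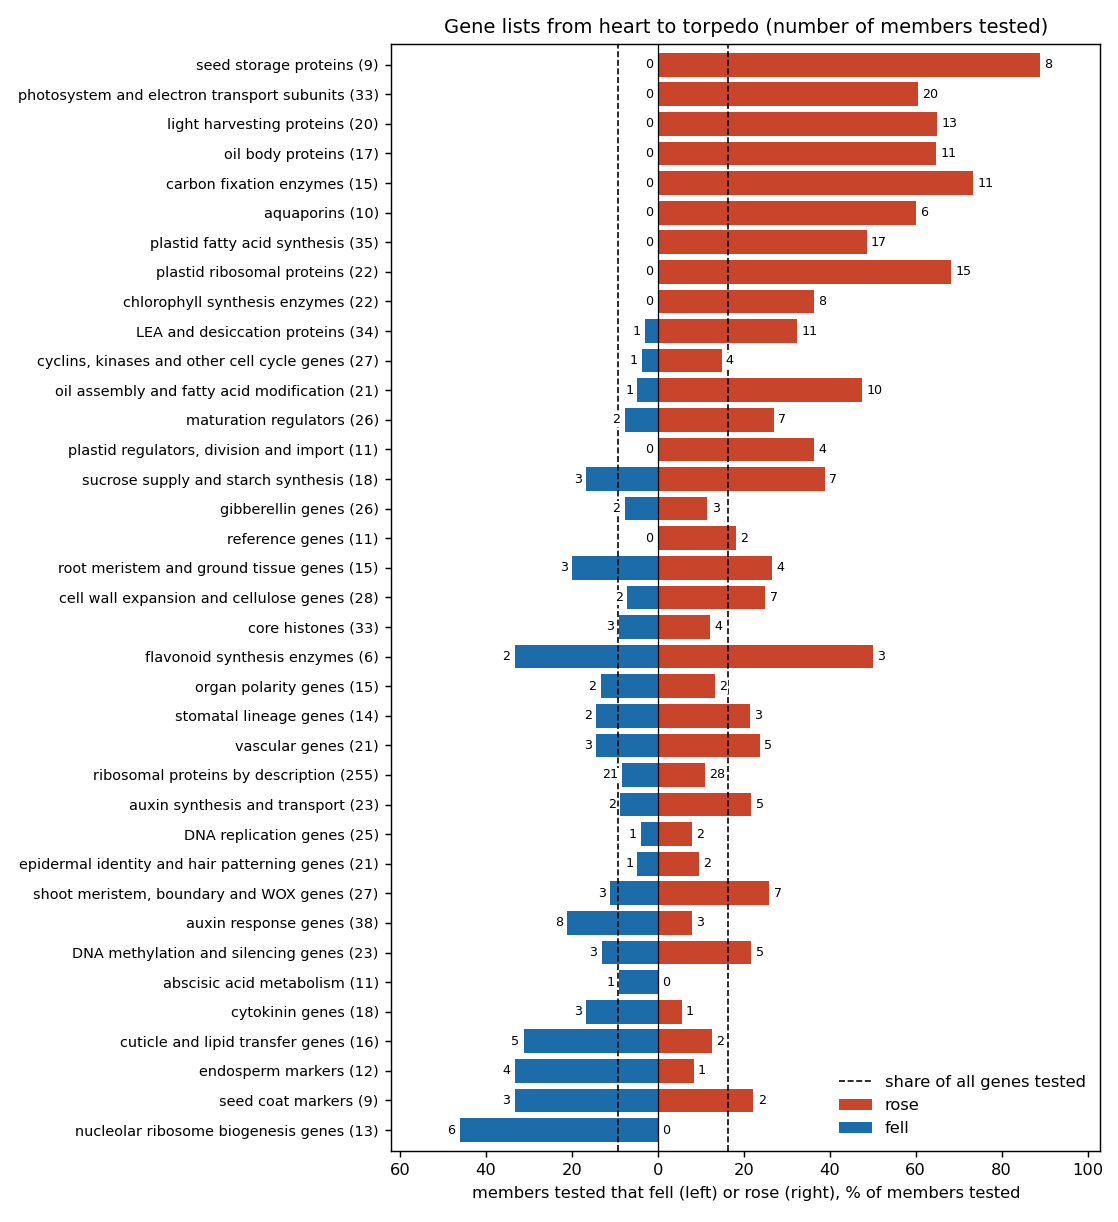
Share of tested members of each gene list that rose (red, right) or fell (blue, left) from heart to torpedo, sorted by median log2 change, with the number of members at the bar's end. Dashed lines mark the 16.3% of all genes tested that rose and the 9.17% that fell; seed storage proteins are at the top with 8 of 9 risen and nucleolar genes at the foot with 6 of 13 fallen.

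Genes of ribosome assembly in the nucleolus went the other way. Of 13 tested none rose and 6 fell (9.17% of all genes fell), with a median log2 change of -1.30, and their summed values were 228150 and 265280 in the heart libraries and 66943 and 72362 in the torpedo libraries. AT5G27120 (chr5:9540861-9544065), of the NOP56 and NOP58 family that guides ribosomal RNA methylation, had 42582 and 24340 in the heart libraries and 2096 and 3479.5 in the torpedo libraries (log2 change -3.57, SE 0.71, adjusted p = 0.00237). PES, the Arabidopsis pescadillo needed for the large ribosomal subunit, had 19167 and 15015 in the heart libraries and 3204 and 2089 in the torpedo libraries (log2 change -2.71, SE 0.49, adjusted p = 0.00108). CBF5, a pseudouridine synthase, had 35708 and 28660 in the heart libraries and 7393 and 6905 in the torpedo libraries (log2 change -2.16, SE 0.38, adjusted p = 0.000952). All 3 were lower in each torpedo library than in either heart library. NUC-L1, a nucleolin, had 56005 and 97059 in the heart libraries and 17751 and 20365 in the torpedo libraries (log2 change -1.96, adjusted p = 0.0273), but its call was lost without the second heart library (adjusted p = 0.172), the first torpedo (0.115) or the second torpedo library (0.0841). FIB1, a fibrillarin, had 26317 and 40822 in the heart libraries and 12483 and 11947 in the torpedo libraries (adjusted p = 0.0209), with the call lost without the same libraries (adjusted p = 0.151, 0.0799 and 0.0907). NOP56 did not pass, at 17877 and 28457 in the heart libraries and 10030 and 14041 in the torpedo libraries (adjusted p = 0.23). Falls of the list numbered 5, 3, 4 and 3 without the first heart, second heart, first torpedo or second torpedo library.

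The start of AT5G27120 is shown because it holds both element types known from ribosome biogenesis genes, the telo box AAACCCTA and site II TGGGCC, on either strand in capitals (RefSeq, build TAIR10.1, chr5:9540661-9540860, plus strand).
AT5G27120: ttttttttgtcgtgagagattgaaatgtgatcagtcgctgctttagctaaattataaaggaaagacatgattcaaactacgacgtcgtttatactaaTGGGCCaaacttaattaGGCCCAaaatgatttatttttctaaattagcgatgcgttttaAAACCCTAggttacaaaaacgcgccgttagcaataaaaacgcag
In windows of 250 bases the telo box stood in 3 of 13 nucleolar genes and 3.63% of all genes tested, and site II in 7 of 13 and 16.3%. Among all genes that fell the shares were 3.03% and 13.6%. Site II was also frequent in other lists, in 15 of 25 DNA replication genes and 8 of 22 plastid ribosomal protein genes. Of the latter list 15 rose and none fell. Genes described as ribosomal proteins held site II in 123 of 255 windows and the telo box in 37. A link of these elements to the falls was not tested.

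Genes of the shoot meristem, its boundaries and the WOX family went both ways, with 7 of 27 tested rising and 3 falling. These shares were 25.9% and 11.1%, against 16.3% and 9.17% of all genes, and the median log2 change was 0.02. WOX1, a homeobox gene of leaf blade outgrowth, had 15.1 and 5.0 in the heart libraries and 200.1 and 170.1 in the torpedo libraries (log2 change 3.85, SE 0.60, adjusted p = 0.000387). LOF1, a MYB gene of organ boundaries, had 6.04 and 4.0 in the heart libraries and 52.5 and 57.8 in the torpedo libraries (log2 change 2.72, SE 0.37, adjusted p = 0.000132). DRNL, which acts in cotyledon initiation, had 179.7 and 373 in the heart libraries and 19.7 and 18.8 in the torpedo libraries (log2 change -3.50, SE 0.49, adjusted p = 0.00017). WOX1 and LOF1 were low at heart and DRNL low at torpedo. AS1, a MYB gene that represses meristem genes in lateral organs, had 734 and 731 in the heart libraries and 4687 and 5289 in the torpedo libraries (log2 change 2.76, adjusted p = 0.016), with the call lost without the first or second heart library (adjusted p = 0.077 and 0.0762) and the first or second torpedo library (0.0713 and 0.0867). The list's rises numbered 2, 4, 4 and 4 in these 4 fits and its falls 2, 2, 2 and 3. After median-centring 4 rose and 6 fell, so the list's balance depended on the scaling. Of 15 organ polarity genes 2 rose and 2 fell (13.3% each, against 16.3% and 9.17% of all genes), with 1 rise and 3 falls after median-centring. ETT, an auxin response factor of the lower leaf side, had 6404 and 10045 in the heart libraries and 1758 and 1171 in the torpedo libraries (log2 change -2.48, SE 0.43, adjusted p = 0.000865), while FIL, a YABBY gene of the same side, had 3939 and 2936 in the heart libraries and 5763 and 7895 in the torpedo libraries and did not pass (adjusted p = 0.322).

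Members of the PLETHORA family of AP2 factors, known from the root stem cell niche, went both ways, and not all members are described here. PLT1 and PLT2, named here after their values were seen, were lower at torpedo. PLT1 had 1219.9 and 1427 in the heart libraries and 256 and 255 in the torpedo libraries (log2 change -2.35, SE 0.45, adjusted p = 0.00182). PLT2 had 871 and 692 in the heart libraries and 118 and 129 in the torpedo libraries (log2 change -2.61, SE 0.41, adjusted p = 0.00041). Their relatives PLT3, PLT7 and AIL5 rose. PLT3 had 168 and 180.2 in the heart libraries and 1296 and 2001 in the torpedo libraries (log2 change 3.18, SE 0.46, adjusted p = 0.000236). PLT7 had 52.8 and 39 in the heart libraries and 702 and 832 in the torpedo libraries (log2 change 3.96, SE 0.43, adjusted p = 2.52e-05), and AIL5 had 356 and 334 in the heart libraries and 2116 and 2373 in the torpedo libraries (log2 change 2.68, SE 0.56, adjusted p = 0.00323). As for nearly all genes past the test, the stages did not overlap for any of the 5 genes. WIP4, a zinc finger gene of root initiation, fell from 424 and 548 to 49.2 and 47.4 (log2 change -3.22, SE 0.49, adjusted p = 0.000337). In the root meristem and ground tissue list as a whole 4 of 15 genes tested rose and 3 fell. These shares were 26.7% and 20%, against 16.3% and 9.17% of all genes, and the median log2 change was 0.43. Leaving out 1 of the 4 libraries gave 3 to 4 rises and 3 falls.

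Of 21 vascular genes 5 rose (23.8%, against 16.3% of all genes) and 3 fell (14.3%, against 9.17%), with a median of 0.13. The balance turned under other scalings and tools, with 4 rises and 6 falls after median-centring and by edgeR and 4 and 7 by DESeq2. It was 3 and 5 after quantile normalization, and 4 and 5 when libraries were scaled to their upper quartile. PXY, a receptor kinase of the cambium, had 21.1 and 7.01 in the heart libraries and 190.2 and 312 in the torpedo libraries (log2 change 3.90, SE 0.55, adjusted p = 0.00019). PEAR1, a DOF factor of early phloem, had 9.06 and 14 in the heart libraries and 91.8 and 164 in the torpedo libraries (log2 change 3.05, SE 0.47, adjusted p = 0.000375). MP, the auxin response factor that sets up embryonic vessels and root, had 4037 and 3166 in the heart libraries and 1453 and 1769 in the torpedo libraries and did not pass (adjusted p = 0.235). Changes in the vascular list ranged from -3.78 to 4.12 in log2, and its 3 members that fell are not named here. Rises numbered 2, 3, 4 and 3 and falls 1, 1, 1 and 2 without the first heart, second heart, first torpedo or second torpedo library.

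In the outer layer, 2 of 21 epidermal identity genes rose and 1 fell (9.52% and 4.76%, against 16.3% and 9.17% of all genes), and rises numbered 0, 1, 0 and 0 without the first heart, second heart, first torpedo or second torpedo library. HDG3, a homeobox gene of the HD-ZIP IV class, had 411 and 410.4 in the heart libraries and 13.1 and 13 in the torpedo libraries (log2 change -4.60, SE 0.48, adjusted p = 1.84e-05). Its relative ATML1, which specifies the epidermis, had 3497 and 3422 in the heart libraries and 2663 and 1683 in the torpedo libraries and did not pass (adjusted p = 0.353). PDF1, a target of ATML1, varied between the heart libraries and overlapped, at 109810 and 34184 in the heart libraries and 20112 and 42296 in the torpedo libraries (adjusted p = 0.348). Among 16 cuticle and lipid transfer genes 2 rose (12.5%, against 16.3% of all genes) and 5 fell (31.25%, against 9.17%), with a median of -0.37. FDH (FIDDLEHEAD), a condensing enzyme that keeps organs from fusing, had 41809 and 30137 in the heart libraries and 7999.7 and 8935 in the torpedo libraries (log2 change -2.07, SE 0.44, adjusted p = 0.0038). KCS1, a condensing enzyme of wax synthesis, had 2553 and 3566 in the heart libraries and 889 and 776 in the torpedo libraries (log2 change -1.86, SE 0.41, adjusted p = 0.00434). Both fell, while KCS18 of the same enzyme family was among the largest rises. The cuticle list's falls numbered 2, 4, 4 and 2 without the first heart, second heart, first torpedo or second torpedo library.

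Of 14 stomatal lineage genes 3 rose, 2 fell and 9 did not pass, shares near those of all genes (21.4% against 16.3% and 14.3% against 9.17%). POLAR, which marks the pole of asymmetrically dividing stomatal precursors, had 0 and 1.0 in the heart libraries and 538 and 275 in the torpedo libraries, a share of reads 529.5-fold (95% counting interval 94.7 to 20949) higher at torpedo (adjusted p = 7.31e-06). BASL, a partner at the same pole, had 3.02 and 2.0 in the heart libraries and 49.2 and 68.8 in the torpedo libraries (log2 change 3.26, SE 0.46, adjusted p = 0.00018). The receptor kinases ERL1 and ERL2, which restrain stomatal divisions and act in organ growth, were lower. ERL1 had 5707 and 4308 in the heart libraries and 610.1 and 975 in the torpedo libraries (log2 change -2.68, SE 0.45, adjusted p = 0.000632), and ERL2 had 10503 and 7340.3 in the heart libraries and 1092 and 1384 in the torpedo libraries (log2 change -2.83, SE 0.35, adjusted p = 7.04e-05). The calls of these 4 genes held with each of the 4 libraries left out.

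**Figure D4:**
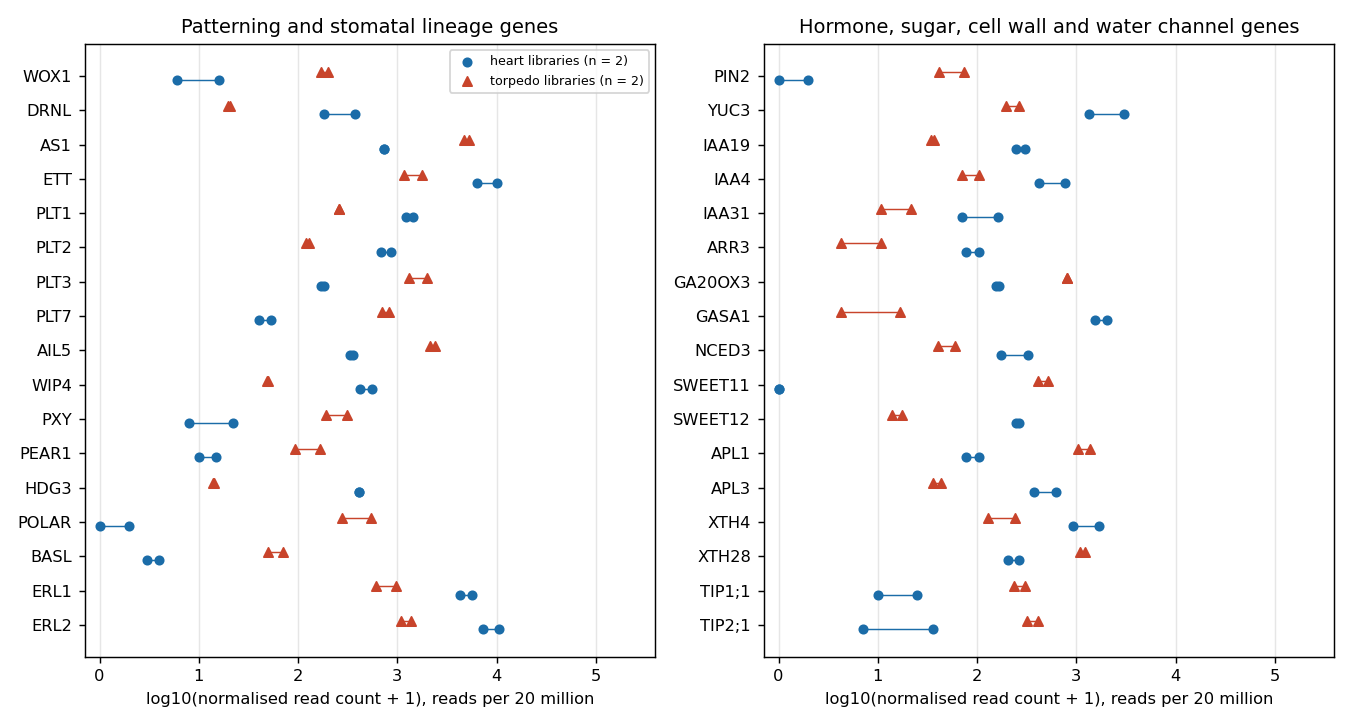
Values of patterning and stomatal lineage genes (left) and of hormone, sugar, cell wall and water channel genes (right) in each library, as log10 of the normalised read count plus 1. Circles are the 2 heart libraries and triangles the 2 torpedo libraries; PLT1 and PLT2 lie to the left at torpedo and PLT3, PLT7 and AIL5 to the right, and SWEET11 is at 0 in both heart libraries.

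Auxin is the main patterning hormone of the embryo. Of 38 auxin response genes tested 3 rose (7.89%, against 16.3% of all genes) and 8 fell (21.1%, against 9.17%), with a median of 0.02. The members that fell included AUX/IAA repressors. IAA19 had 303 and 245 in the heart libraries and 36.1 and 33.1 in the torpedo libraries (log2 change -2.84, SE 0.43, adjusted p = 0.000339). IAA4 had 415 and 774 in the heart libraries and 68.9 and 103 in the torpedo libraries (log2 change -2.70, SE 0.43, adjusted p = 0.000436), and IAA31 had 163 and 70.1 in the heart libraries and 9.84 and 20.8 in the torpedo libraries (log2 change -2.59, adjusted p = 0.00224). IAA8 had 9374 and 6844 in the heart libraries and 14481 and 16857 in the torpedo libraries and did not pass (adjusted p = 0.176). Falls numbered 4, 6, 3 and 5 without the first heart, second heart, first torpedo or second torpedo library. In auxin synthesis and transport 5 of 23 rose (21.7%, against 16.3% of all genes) and 2 fell (8.7%, against 9.17%). Median-centring gave 4 rises and 4 falls, leaving out the second heart library 2 rises and 3 falls, and leaving out the first torpedo library 2 rises and 1 fall. YUC3, a flavin monooxygenase of auxin synthesis, had 3008 and 1355 in the heart libraries and 197 and 264 in the torpedo libraries (log2 change -3.12, SE 0.56, adjusted p = 0.00109). PIN2, an efflux carrier of the root, had 0 and 1.0 in the heart libraries and 72.2 and 40.3 in the torpedo libraries, a share of reads 75.6-fold (95% counting interval 13.2 to 3023) higher at torpedo (adjusted p = 4.6e-05).

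Of 18 cytokinin genes 1 rose and 3 fell (5.56% and 16.7%, against 16.3% and 9.17% of all genes). ARR3, a type-A response regulator that dampens the signal, had 104 and 76.1 in the heart libraries and 9.84 and 3.25 in the torpedo libraries (log2 change -3.22, SE 0.54, adjusted p = 0.000657). Of 26 gibberellin genes 3 rose and 2 fell (11.5% and 7.69%), GASA1 among the falls, with 1 rise and 1 fall without the second heart library. GA20OX3, an oxidase of gibberellin synthesis, had 165 and 155 in the heart libraries and 804 and 801 in the torpedo libraries (5.02-fold higher by means, adjusted p = 0.000611). Of 11 genes of abscisic acid metabolism none rose and 1 fell (9.09%). It was NCED3, the dioxygenase of the rate-limiting step, with 175 and 325 in the heart libraries and 59 and 39.6 in the torpedo libraries (log2 change -2.21, SE 0.47, adjusted p = 0.00346). In abscisic acid metabolism 4 genes fell after median-centring, so that count depended on the scaling.

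Of 18 genes of sucrose supply and starch synthesis 7 rose (38.9%, against 16.3% of all genes) and 3 fell (16.7%, against 9.17%), with a median of 0.52. Pairs of related genes went opposite ways. SWEET11 (AT3G48740, chr3:18052466-18054832), a sucrose exporter, had no read in either heart library and 512 and 408 at torpedo, at least 255-fold higher against 3 reads over both heart libraries (adjusted p = 8.75e-06). Its close relative SWEET12 (AT5G23660, chr5:7971647-7973995) had 243 and 266 in the heart libraries and 16.4 and 13 in the torpedo libraries (log2 change -3.80, SE 0.45, adjusted p = 4.87e-05). Opposite changes were also seen for large subunits of ADP-glucose pyrophosphorylase, which feeds starch synthesis. APL1 had 104 and 77.1 in the heart libraries and 1029.9 and 1386 in the torpedo libraries (log2 change 3.68, SE 0.61, adjusted p = 0.000641), and APL3 had 624 and 370.3 in the heart libraries and 42.6 and 35.1 in the torpedo libraries (log2 change -3.51, SE 0.43, adjusted p = 6.82e-05). The list's rises numbered 3, 3, 3 and 3 and its falls 3, 3, 3 and 3 without the first heart, second heart, first torpedo or second torpedo library.

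Growth of cotyledons and axis needs looser walls and water uptake. Of 28 genes of cell wall expansion and cellulose tested 7 rose (25.0%, against 16.3% of all genes) and 2 fell (7.14%, against 9.17%), with 4 rises and 4 falls after median-centring. XTH28 and XTH16, wall-remodelling xyloglucan enzymes, had 205 and 263 in the heart libraries and 1082 and 1213 in the torpedo libraries for XTH28 and 81.5 and 83.1 in the heart libraries and 469 and 451 in the torpedo libraries for XTH16 (log2 changes 2.28 and 2.43, adjusted p = 0.00038 and 0.00247). XTH4 of the same family had 929 and 1681 in the heart libraries and 243 and 127 in the torpedo libraries (log2 change -2.80, SE 0.50, adjusted p = 0.00113). Of 10 aquaporins, the water channels, 6 rose (60%, against 16.3% of all genes) and none fell, with a median of 1.87. TIP1;1 and TIP2;1, channels of the vacuole membrane, had 9.06 and 24 in the heart libraries and 302 and 232 in the torpedo libraries for TIP1;1 (log2 change 3.81, SE 0.52, adjusted p = 0.000142) and 6.04 and 35 in the heart libraries and 413 and 319 in the torpedo libraries for TIP2;1 (log2 change 4.21, SE 0.64, adjusted p = 0.000337). PIP2;7 of the plasma membrane had 18310 and 22578 in the heart libraries and 49136 and 30838 in the torpedo libraries and did not pass (adjusted p = 0.484). Rises numbered 4, 3, 4 and 3 for the wall list and 5, 4, 4 and 3 for aquaporins without the first heart, second heart, first torpedo or second torpedo library.

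Of 59 cell cycle genes listed 32 were not analysed here, and the 27 tested held only 2 cyclins beside kinases, inhibitors and checkpoint genes. Of these 27 genes 4 rose and 1 fell (14.8% and 3.7%, against 16.3% and 9.17% of all genes), with a median log2 change of 0.85, and in 17 both torpedo libraries lay above both heart libraries (40.0% of all genes did). Of 25 DNA replication genes 2 rose and 1 fell, and of 33 core histones 4 rose and 3 fell (12.1% and 9.09%). AUR1, a mitotic kinase, had 226 and 242 in the heart libraries and 1246 and 1154 in the torpedo libraries (log2 change 2.34, adjusted p = 0.018), and its call was lost without the first or second heart (adjusted p = 0.0887 and 0.0756) and the first or second torpedo library (0.091 and 0.0781). PCNA2, the sliding clamp of replication, had 8764 and 8463 in the heart libraries and 3103 and 2652 in the torpedo libraries (log2 change -1.58, adjusted p = 0.00606, and 0.0522 without the second torpedo library). PCNA1 had 4478 and 6499.6 in the heart libraries and 3096 and 3115 in the torpedo libraries and did not pass (adjusted p = 0.529). Histone genes differed by member. HTA12, an H2A gene, had 196 and 70.1 in the heart libraries and 853 and 1373 in the torpedo libraries (log2 change 3.16, SE 0.59, adjusted p = 0.00141), and AT3G45930, an H4 gene, had 31021 and 14498 in the heart libraries and 3903 and 3538 in the torpedo libraries (log2 change -2.51, SE 0.42, adjusted p = 0.000695). HTB4, an H2B gene, overlapped at 27614 and 58285 in the heart libraries and 17229 and 32680 in the torpedo libraries (adjusted p = 0.342). Leaving out the first or second heart or the first or second torpedo library gave 2, 0, 4 and 0 rises for the cell cycle list and 1, 3, 4 and 2 for histones.

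Among 23 genes of DNA methylation and silencing 5 rose (21.7%, against 16.3% of all genes) and 3 fell (13.0%, against 9.17%). Median-centring gave 3 rises and 6 falls, which turned the balance, and rises numbered 3, 2, 0 and 2 without the first heart, second heart, first torpedo or second torpedo library. AGO9, an ARGONAUTE of small RNA silencing in reproductive tissues, had 925 and 1039.9 in the heart libraries and 207 and 221 in the torpedo libraries (log2 change -2.18, SE 0.41, adjusted p = 0.00146). Changes in this list ranged from -3.60 to 2.38 in log2, and its 5 members that rose are not named here. Of 6 flavonoid synthesis genes 3 rose, MYB111 among them, and 2 fell. LDOX, of the anthocyanin and proanthocyanidin branch, had 622 and 541 in the heart libraries and 29.5 and 43.5 in the torpedo libraries (log2 change -3.87, SE 0.49, adjusted p = 8.67e-05). The seed coat markers TT19, which carries flavonoids to the vacuole, and BAN, of proanthocyanidin synthesis, had 240.1 and 279 in the heart libraries and 13.1 and 14.3 in the torpedo libraries for TT19 and 172 and 252 in the heart libraries and 19.7 and 48.7 in the torpedo libraries for BAN (adjusted p = 0.00024 and 0.00235). LDOX fell, as did these markers of the maternal seed coat, while MUM4 and DP1 of the same marker list rose. Of the 9 seed coat markers 3 fell and 2 rose, and the part of the seed coat in the result was not tested.

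Of 12 endosperm markers tested 1 rose (8.33%, against 16.3% of all genes) and 4 fell (33.3%, against 9.17%). MYB118, an endosperm maturation regulator, had 314 and 346 in the heart libraries and 55.8 and 30.5 in the torpedo libraries (log2 change -2.88, adjusted p = 0.00101). FWA, expressed from the maternal allele in endosperm, had 43.8 and 36 in the heart libraries and 0 and 1.3 in the torpedo libraries, a share of reads 36.1-fold (95% counting interval 9.6 to 304) higher at heart (adjusted p = 0.000375). ALE1, a protease gene of the endosperm next to the embryo, had 12.1 and 6.01 in the heart libraries and 131 and 94.8 in the torpedo libraries (log2 change 3.19, adjusted p = 0.000567). EPR1, an extensin-like gene, had 63.4 and 78.1 in the heart libraries and 115 and 160.4 in the torpedo libraries and did not pass (adjusted p = 0.169). Of 9 seed coat markers 2 rose (22.2%) and 3 fell (33.3%), and 5 fell after median-centring. Besides TT19 and BAN, MUM4 of mucilage synthesis had 104 and 62.1 in the heart libraries and 587 and 445 in the torpedo libraries (log2 change 2.61, adjusted p = 0.00187), and DP1, a dirigent protein gene, had 1.51 and 0 in the heart libraries and 78.7 and 139 in the torpedo libraries, a share of reads 214-fold (95% counting interval 38.1 to 8500.4) higher at torpedo (adjusted p = 9.42e-05). PER36 of the seed coat had 24.2 and 21 in the heart libraries and 6.56 and 2.6 in the torpedo libraries (adjusted p = 0.0565).

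Counts for the neighbouring steps came from the same fit. Of the light harvesting genes 12 of 20 rose from globular to heart (27.7% of all genes rose, 6.9% fell), and from torpedo to bent none rose and 3 fell (5.46% rose, 22.0% fell). Plastid ribosomal protein genes had 7 rises and 1 fall into heart, and all 22 fell from torpedo to bent. Of the 9 storage protein genes 1 rose and 5 fell from globular to heart, and 8 rose from torpedo to bent. Of the 17 oil body genes 6 rose and 3 fell into heart, and 13 rose and 1 fell into bent. Of 34 LEA genes 2 rose and 15 fell from globular to heart, and 15 rose and 3 fell from torpedo to bent. Of the 13 nucleolar genes 3 rose and 1 fell into heart, and 7 fell after torpedo. The steps share heart or torpedo libraries, so their values stand side by side and no difference between steps was tested.

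**Figure D5:**
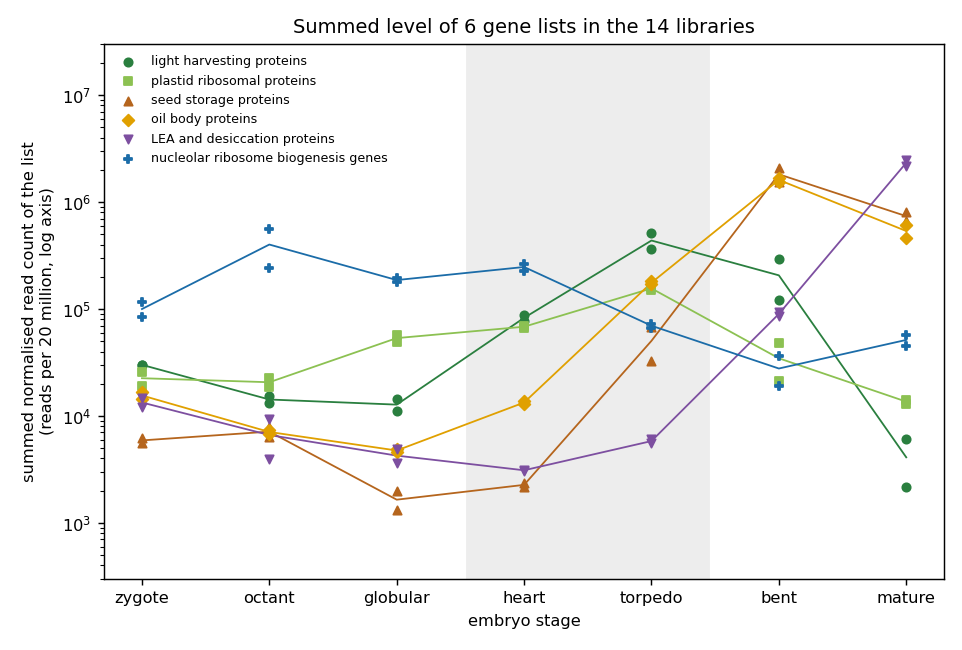
Summed normalised read count of 6 gene lists (log axis) in the 14 libraries over the 7 stages, with a point per library, a line through stage means and the heart and torpedo stages shaded. Light harvesting and plastid ribosomal protein genes are highest at torpedo, storage and oil body genes climb further to the bent stage, LEA genes are highest in the mature embryo, and nucleolar genes are lower at torpedo than at heart.

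Some values are uncertain because the library kit does not mark strand and reads of overlapping genes cannot be told apart. Among the genes named, overlap with another annotated gene holds for AT3G63040, UGT74F2, OLEO5, ACP5, MRD1, AT2G34330, AT1G52695, LHCA5, LHCB1.5, LHCB6, PSAH1, PSAE1, CHLM, PORB, GGR, EMB3136, AT1G64510, OLEO1, OLEO2, HSD5, NF-YB6, EEL, BCCP2, FABG, RAB18, PCNA2, AUR1, HTA12, AS1, PLT3, MP, POLAR, ERL1, APL1, TIP2;1, NUC-L1, FIB1, NOP56, FWA, TT19 and MUM4. Transcripts of LHCB1.2, LHCB1.4, LHCB1.5, RBCS3B, RBCS1B and AT3G45930 held, in over 10% of their stretches of 50 bases, letters that also occur in another gene's transcript.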

How the data were processed

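Embryos of 7 stages were sequenced with 2 libraries each, from RNA amplified as antisense RNA and libraries made with a TruSeq kit, per the labels' protocols. Per the submitters' processing notes, the tools were STAR, HTSeq, DESeq2, CASAVA, FastQC and Trimmomatic, on build TAIR10, with no role or version stated. What the authors deposited is a normalised signal for each gene, made from read counts. Each column sums to 20000000, and all values are whole multiples of their library's smallest value (100% of values within 0.001), so whole reads were recovered. The 103 rows without a locus code took 10.7% to 15.6% of reads in the 4 libraries and were not tested.

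The number 4 was added to each value, and the log2 of the sum went into a limma fit (version 3.58.1, R 4.3.3) of all 14 libraries by stage alone, which assumes that every stage varies alike. It had 7 degrees of freedom between replicates and 7.81 more from the prior. A gene's spread between replicates of any stage thus entered its test, also where heart and torpedo replicates were close. The mature libraries had 11.0 and 1067 for KASI, 59.45 and 576 for PSBO1, 0 and 316 for PORB, and 1.56 and 97.8 for WRI1. The test took genes reaching 10 in 2 libraries, with Benjamini-Hochberg adjusted p-values and a threshold of 0.05. edgeR 4.0.16 and DESeq2 1.42.0 were run on the recovered reads. Replicate numbers did not pair the samples (the deviations of same-numbered heart and torpedo libraries correlated at -0.019). Tried besides were 1 or 16 as pseudocount, all genes or those reaching 50, 4 other scalings, array weights, a replicate block, these 4 libraries alone, and each library left out, which leaves a stage with 1 library assumed to vary like the others. The steps were tested on simulated data with known changes between heart and torpedo. Only the genes given a change differed there, a far smaller share than the 25.4% called in the data. The shares recovered thus need not hold for the data. The main test recovered 23% of 100 genes changed 4-fold and 0% of 100 changed 2-fold, and it called 1 unchanged gene. With edgeR 49% and 3% were recovered, and with DESeq2 61.6% and 10.1%. A gene that did not pass is thus not shown to be unchanged.

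The stages compared and the 37 gene lists, 1 of them ribosomal proteins by description, were chosen with earlier results of these data known. The other lists named 909 genes, 758 of them found in the table, and 151 were not analysed here. Genes were named by rule as the 15 largest rises and falls whose higher stage averaged at least 100, without overlap, up to 4 called members per list by size of change averaging at least 50, and up to 2 more by level; exceptions are marked. Where a stage held no read, 3 reads over its 2 libraries were the floor, and with 1 to 3 reads the ratio has an exact binomial 95% interval, both covering counting error only. With such genes at their bound, the median log2 change of the endosperm markers moved from -0.65 to -0.74. That of the LEA genes moved from 1.037 to 1.045, and both medians of the oil body genes are given above. Of 25414 genes 24932 matched the reference (RefSeq, TAIR10.1).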

Additional observations from a re-analysis of the deposited data

Results flagged for a closer look

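Signal appeared in data outside the comparison. The 103 rows of the table without a locus code held 15.6% of the reads of the first heart library and 13.5% of the second, and 10.9% and 10.7% of those of the first and second torpedo libraries. These rows carry no gene name and were not analysed further.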

How the results depend on the processing

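The count of changed genes moved from 4765 to between 2554 and 2873 when 1 of the 4 compared libraries was left out, with 1555 to 1757 rises and 873 to 1116 falls. Median-centring gave 1965 rises and 3132 falls, and fitting the 4 libraries alone, with 2 residual degrees of freedom, gave 1065 falls and 2252 rises. The cause was not tested. Totals between 4014 and 6169 came from the other alternatives. With the replicate block 2996 genes rose and 1736 fell, and no call of a named gene changed; the numbers do not pair the samples. Of 127 named genes past the test 113 stayed past it under each alternative and 119 with each of the 4 libraries left out, and none changed sign. The named genes past the test were chosen mainly for the size of their change, so these counts do not describe all 4765 genes called. Fitting the 4 libraries alone ended the calls of AT2G27710, AT3G24250, BAN, FIB1, HTA12, IAA31, NCED3, NUC-L1 and RBCS1A, and DESeq2 those of LOF1 and PORB. The calls of RBCS1A and PORB were also lost with pseudocount 1, no filter, upper-quartile scaling and median-centring, that of PORB with equal totals over named genes, that of NUC-L1 with no filter and that of AUR1 with pseudocount 1. WRI1, KASI, AT1G07750, RAB18, PER36, PSBO1 and MP passed under 1 or more alternatives. The first torpedo library limits low values, and 2 libraries a stage limit precision.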

Other observations

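Ribosomal proteins were also taken by their description, leaving out those described as plastid or mitochondrial or held by the plastid list. Of 255 tested 28 rose and 21 fell (16.3% and 9.17% of all genes tested), with a median log2 change of 0.12, and after median-centring 12 rose and 45 fell. Single members were far from that median, with log2 changes from -4.12 to 3.90 and 144 of 255 above 0. The members named here both fell, although more of the list rose than fell on the deposited scale. AT2G27710, of the acidic ribosomal protein family, had 606270 and 177760 in the heart libraries and 18649 and 30059 in the torpedo libraries (log2 change -3.79, SE 0.63, adjusted p = 0.00065), with the first heart library far above the second. AT3G28500, of the same family, had 876 and 2614 in the heart libraries and 52.5 and 131 in the torpedo libraries (log2 change -4.12, SE 0.60, adjusted p = 0.000253).

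Another abundant gene, AT3G24250, described as a glycine-rich protein and named after its values were seen, had 268580 and 348310 in the heart libraries and 29080 and 29879 in the torpedo libraries (log2 change -3.38, adjusted p = 0.0171). Its call was lost without the first or second heart (adjusted p = 0.0647 and 0.0926) and the first or second torpedo library (0.0795 and 0.0759). Of 11 reference genes often used to scale expression 2 rose (18.2%, against 16.3% of all genes) and none fell. GAPC1, a glycolytic enzyme, had 6270.1 and 9628 in the heart libraries and 43468 and 43000 in the torpedo libraries (log2 change 2.48, SE 0.46, adjusted p = 0.00147), and ACT7, an actin, had 31542 and 50249 in the heart libraries and 22284 and 24710 in the torpedo libraries and did not pass (adjusted p = 0.388).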
